A study of Mus musculus with 15 samples.

Results

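The genes described here encode the precursors of 10 neuropeptides that are made by neurons in and around the ventral tegmental area, the midbrain region that holds the dopamine neurons of the reward system. They were taken by symbol from a table of 35976 genes: Cck, Vip, Grp, Nts, Tac1, Adcyap1, Gal, Sst, Npy and Cartpt. All 10 were found, and all 10 passed the filter on low counts in the fits reported here.

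A neuropeptide is cut from a larger precursor in the secretory pathway, stored in dense-core vesicles and released during strong firing, and it acts on G protein-coupled receptors. Many neurons release a peptide beside a fast transmitter. Cck, which encodes cholecystokinin, is the textbook peptide of ventral tegmental dopamine neurons. Neurotensin (Nts), substance P (Tac1) and PACAP (Adcyap1) are known to act on those neurons or on their inputs, and the transcript that Cartpt encodes is named for its induction by cocaine and amphetamine in the striatum.

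RNA came from nuclei of male heterozygous DAT-Cre mice, 8 to 12 weeks old, in which Cre is expressed from the dopamine transporter gene. All mice, controls included, received the virus AAV5-DIO-KASH-HA in the ventral tegmental area, which puts an HA tag on the nuclear envelope of cells with Cre, and 14 days were left for expression. The tissue of 2 mice was pooled per sample, and nuclei were sorted by the HA tag into dopaminergic (DA, HA-positive) and non-dopaminergic (nDA, HA-negative) fractions. There were 4 groups: food-trained DA (FT DA, n = 4) and nDA (FT nDA, n = 4), taken after 7 days of operant training for food; maintenance DA (MN DA, n = 3), taken after intravenous self-administration of cocaine, first 5 days on 0.3 mg/kg/infusion and then 10 days on 1.0 mg/kg/infusion, with each session lasting 1 hour; and craving DA (CRV DA, n = 4), taken after the same cocaine schedule and 21 days of abstinence in the home cage. The cocaine groups were food-trained first and had catheter surgery, so cocaine, surgery and elapsed time cannot be told apart in a comparison with FT. Only food-trained mice gave nDA libraries. The labels do not say that each sample came from a separate cohort, so a p-value measures the spread between these samples, which may be partly technical.

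The 15 libraries held between 25813697 and 59046618 counts each. The 12 listed dopamine neuron markers summed to between 5890 and 12536 CPM (each count scaled to the size of its library) in the DA libraries and to between 367 and 546 CPM in the nDA libraries. Among them, Slc6a3 (the transporter gene that drives Cre) had means of 3010 ± 1031 CPM in FT DA and 91.5 ± 18.9 CPM in FT nDA (SD, n = 4 each). The nDA fraction is labelled as neurons, but its 8 oligodendrocyte markers summed to between 9049 and 22274 CPM, against 1125 to 2741 CPM in the DA libraries, so it held glial RNA as well; the part of this difference in the population results was not tested. Markers of other neurons were present in both fractions: the 4 GABA markers summed to between 356 and 1378 CPM in DA and to between 694 and 1466 CPM in nDA libraries, and the 3 glutamate markers to between 169 and 947 CPM and between 375 and 643 CPM. The 13 pan-neuronal genes summed to between 4069 and 6858 CPM in DA and to between 2688 and 3041 CPM in nDA libraries, but single genes of this list went both ways. By edgeR 4 of the 13 were called higher in FT DA (Syt1, Elavl4, Tubb3 and Uchl1, with log2 fold changes of 1.45, 1.33, 1.02 and 0.87) and 2 lower (Rbfox3 and Elavl3, -1.18 and -0.99), so results scaled to this list carry those differences. DA libraries also missed genes: of genes with a mean of 100 to 1000 counts in the group, 32.3% were at 0 in at least 1 of the FT DA libraries, 18.7% in MN DA, 10.9% in CRV DA and 0.194% in FT nDA. In pooled sorted nuclei, fewer cells that make a peptide and less RNA per cell cannot be told apart.

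The promoters of 9 of the members were matched by symbol in RefSeq (build GRCm38.p6), and the 250 bases before each start site were searched on both strands for 4 motifs. They were the cAMP response element TGACGTCA, its part TGACGT, the E-box CACGTG and the AP-1 site TGAGTCA. The windows below, 30 bases each and 5′ to 3′ on the strand of the gene, are shown for Vip and Cck, which differed between the populations, and for Sst and Cartpt, which hold the whole response element; capitals mark the motif.
Vip: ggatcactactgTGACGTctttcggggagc
Cck: gctgcctctgagCACGTGtcctgctggact
Sst: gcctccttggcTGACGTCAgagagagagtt
Cartpt: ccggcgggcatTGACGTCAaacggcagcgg

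The Vip window lies at chr10:5639127-5639156 on the plus strand, with the motif 79 bases before the start site. The Cck window is chr9:121495743-121495772, minus strand, with the motif at 66 bases. The Sst window is chr16:23890874-23890903, minus strand, with the motif at 48 bases, and the Cartpt window is chr13:99900777-99900806, minus strand, at 112 bases. Adcyap1 held the same partial element as Vip, 91 and 242 bases before its 2 listed start sites. Tac1 held an E-box 61 bases before its start site, and Nts an AP-1 site at 207 bases. The Sst, Cartpt and Tac1 matches lie inside the GENCODE gene spans given further on, as the RefSeq start sites of these genes lie within those spans. Gal and Npy held none of these letters in the window. Of 32851 promoters, 1.55% held the whole element, 6.47% the partial one (whole ones included), 6.02% the E-box and 4.46% the AP-1 site. A match describes the letters only and shows no binding.

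Dopaminergic and non-dopaminergic nuclei of food-trained mice were compared first, to ask which peptides mark the dopamine fraction. Vip and Cck were higher in dopaminergic nuclei, 11.1-fold and 5.81-fold, and the other 8 precursors did not pass the test. That is 2 of 10 members called, and 3 at an unadjusted p under 0.05 (24.3% of all genes), where edgeR's quasi-likelihood test called 12.8% of 19786 genes in either direction (Benjamini-Hochberg adjusted p under 0.05), 3.63% as higher and 9.17% as lower in FT DA (719 and 1815 genes, which became 106 and 5005 when libraries were scaled to pan-neuronal genes, 916 and 727 with at least 10 counts in every library and 413 and 362 with the replicate block). The median log2 fold change of the members was -0.16, beside -0.21 over all genes tested. The list as a whole sat near the middle of all genes, with Vip and Cck at its upper end.

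Vip encodes vasoactive intestinal peptide, a peptide of the secretin family that raises cAMP in its target cells. Its gene lies on chromosome 10 of GRCm38 (5639218 to 5647617, plus strand, GENCODE M21). Vip stood at 28.5, 51.3, 68.5 and 38.96 CPM in FT DA replicates 1 to 4 and at 2.23, 6.92, 1.93 and 5.55 CPM in FT nDA replicates 1 to 4. The lowest DA library was above the highest nDA library, so that the groups did not overlap. The log2 fold change was 3.47 (SE 0.53; adjusted p 0.00670 by edgeR).

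Vip was also above the nDA range at the other stages. It stood at 16.9, 97.4 and 96.5 CPM in MN DA and at 67.3, 69.1, 40.0 and 17.6 CPM in CRV DA. Vip and Cck were the members whose 11 DA libraries all lay above all 4 FT nDA libraries, a pattern that 3.04% of the genes tested shared. No member had all 11 DA libraries below the nDA range, which 7.8% of the genes tested did.

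Cck encodes cholecystokinin, whose receptors Cckar and Cckbr are described further on. The gene lies on chromosome 9 (121489824 to 121495694, minus strand). Cck stood at 72.1, 45.7, 174.6 and 96.6 CPM in FT DA replicates 1 to 4 and at 11.96, 8.85, 22.8 and 22.1 CPM in FT nDA replicates 1 to 4. The groups did not overlap, although FT DA replicate 3 was 3.82-fold above FT DA replicate 2. The log2 fold change was 2.54 (SE 0.48; adjusted p 0.00764 by edgeR).

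**Figure D1:**
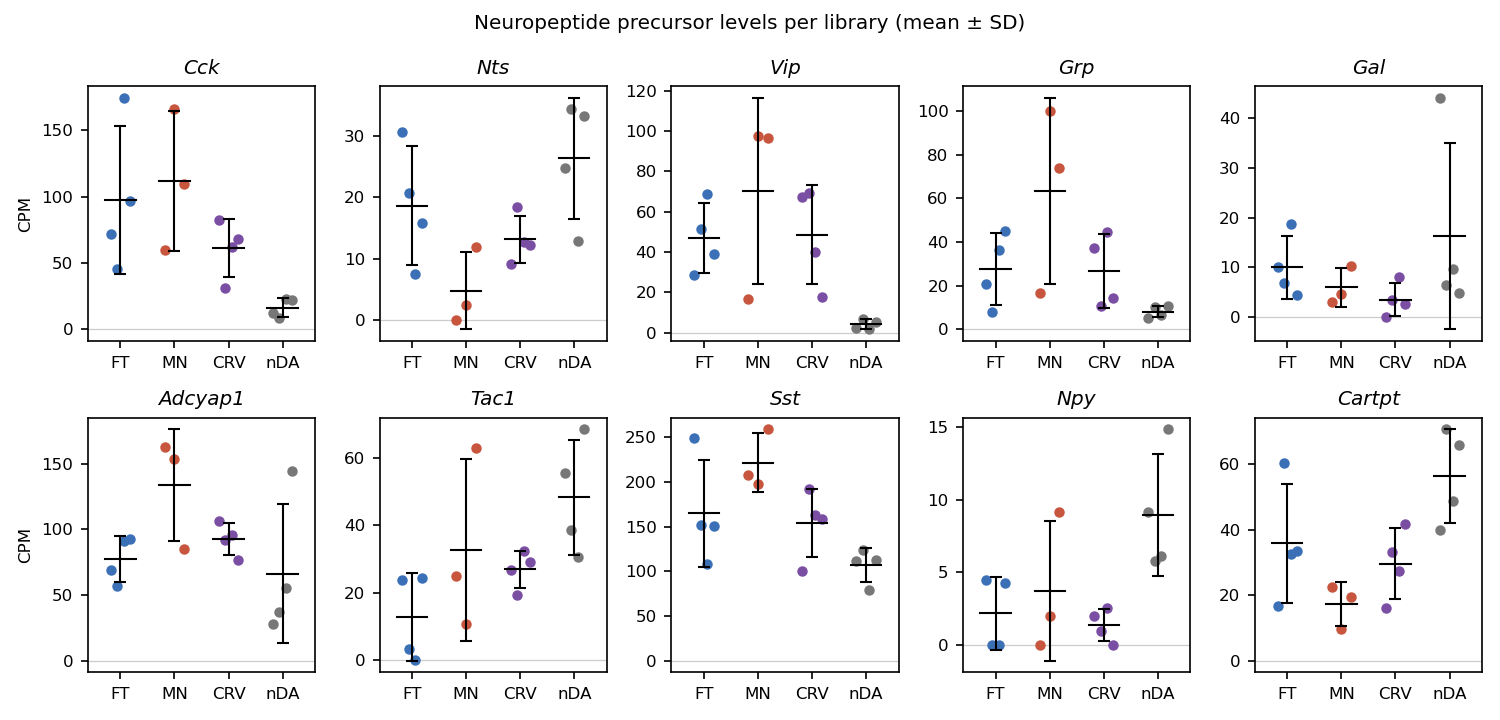
Normalised level (CPM) of each precursor gene in every library. Each point is 1 library, the horizontal bar is the mean and the error bar the SD; FT, MN and CRV are dopaminergic nuclei (n = 4, 3 and 4) and nDA is the non-dopaminergic fraction of food-trained mice (n = 4). Vip and Cck stand above the nDA range in all 11 dopaminergic libraries, and Tac1, Npy, Nts and Gal each have dopaminergic libraries at 0.

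Grp, which encodes gastrin-releasing peptide, a relative of bombesin, had the next largest fitted change among the members with higher levels in FT DA. Grp stood at 20.8, 7.93, 36.3 and 45.2 CPM in FT DA and at 5.37, 10.1, 6.39 and 10.5 CPM in FT nDA. FT DA replicate 2 lay inside the nDA range and the other 3 DA libraries lay above it. The log2 fold change of 1.75 (SE 0.56) had an edgeR adjusted p of 0.0817, and without FT DA replicate 2 it was 2.05 with an edgeR adjusted p of 0.0140. Grp passed in 4 of 19 alternative fits, among them DESeq2 and limma-voom (adjusted p 0.0121 and 0.0229). It did not pass in the others, which include the scaling to pan-neuronal genes (log2 fold change 0.82, edgeR adjusted p 0.286), the replicate block, which adds the replicate number to the fit (1.58, 0.197), and the fit without FT DA replicate 4 (1.39, 0.154). Another annotated transcript overlaps Grp on the other strand, and whether the counts used strand is not given in the sources used here.

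Sst (chromosome 16, 23889573 to 23890958, minus strand) encodes somatostatin, an inhibitory peptide of many GABA neurons, and was the most abundant member per length in every group. Sst stood at 249.3, 152.3, 107.9 and 150.6 CPM in FT DA and at 112.1, 123.7, 79.4 and 113.0 CPM in FT nDA. The 2 fractions overlapped through FT DA replicate 3 (fitted log2 fold change 0.60, SE 0.27; adjusted p 0.209 by edgeR). Adcyap1, the PACAP precursor (chromosome 17, 93199017 to 93206537, plus strand), ranged from 56.8 to 92.6 CPM in FT DA and from 28.1 to 144.2 CPM in FT nDA (fitted log2 fold change 0.20, SE 0.48; adjusted p 0.864 by edgeR). Scaled to the 13 pan-neuronal genes in place of TMM, the log2 fold change was -0.23 for Sst and -0.65 for Adcyap1, neither called. The direction of both therefore depends on the scaling, and that of Adcyap1 also on single libraries (-0.03 without FT nDA replicate 1, -0.0032 without FT nDA replicate 2 and 0.91, with an edgeR adjusted p of 0.138, without FT nDA replicate 4, the library at 144.2 CPM).

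The 5 members with lower means in dopaminergic nuclei were Tac1, Npy, Gal, Cartpt and Nts, and none passed the test. Tac1, the precursor of substance P and neurokinin A (chromosome 6, 7554879 to 7565834, plus strand), stood at 23.7, 3.33, 0 and 24.4 CPM in FT DA and at 55.4, 38.6, 30.7 and 68.4 CPM in FT nDA. Npy, the precursor of neuropeptide Y (chromosome 6, 49822710 to 49829507, plus strand), stood at 4.46, 0, 0 and 4.24 CPM in FT DA and at 9.14, 5.78, 6.14 and 14.9 CPM in FT nDA. In Tac1 and Npy every DA library lay below every nDA library. Groups did not overlap in 4 of the 10 members (Cck, Vip, Tac1 and Npy) and in 26% of all genes tested.

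Tac1 and Npy, the members with FT DA libraries at 0, had the widest errors. The log2 fold change was -1.92 (SE 1.22; adjusted p 0.397 by edgeR) for Tac1 and -2.06 (SE 1.67; adjusted p 0.532 by edgeR) for Npy. An exact permutation test of the mean log2 CPM over the 8 libraries, two-sided, gave 0.0286 for each of Tac1, Npy, Cck and Vip, which is the smallest p that 70 arrangements of 4 against 4 allow and is not adjusted for the 10 members. The part that missed genes in FT DA libraries have in the Tac1 and Npy values was not tested.

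Cartpt (chromosome 13, 99898489 to 99901091, minus strand) ranged from 16.8 to 60.5 CPM in FT DA and from 39.9 to 70.7 CPM in FT nDA (fitted log2 fold change -0.68, SE 0.38; adjusted p 0.330 by edgeR). Nts (chromosome 10, 102481756 to 102490486, minus strand) ranged from 7.45 to 30.7 against 12.9 to 34.3 CPM (-0.52, SE 0.48; adjusted p 0.599 by edgeR). Gal, the galanin precursor (chromosome 19, 3409915 to 3414544, minus strand), ranged from 4.37 to 18.8 CPM in FT DA and from 4.84 to 44.2 CPM in FT nDA (-0.72, SE 0.80; adjusted p 0.669 by edgeR), and without FT nDA replicate 1, the library at 44.2 CPM, its log2 fold change was 0.53 (edgeR adjusted p 0.818). All 3 overlapped between the fractions. Scaled to the pan-neuronal genes, Cartpt passed as lower in dopaminergic nuclei (log2 fold change -1.49, edgeR adjusted p 0.0266), while Cck and Vip stayed higher, by 1.64 and 2.63 on the log2 scale (edgeR adjusted p 0.0234 and 0.00622). Under it the median over all genes went from -0.21 to -1.07.

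**Figure D2:**
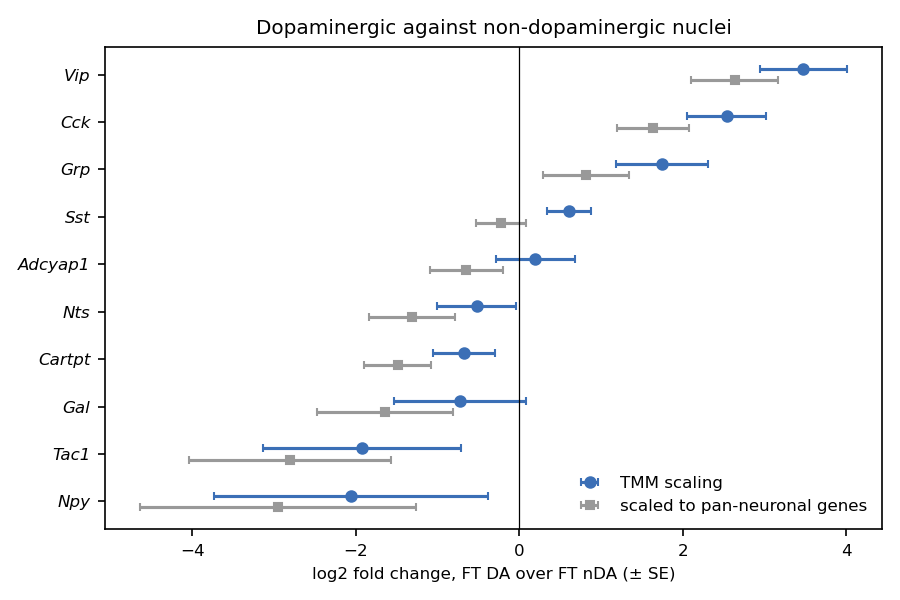
log2 fold change of each precursor between dopaminergic and non-dopaminergic nuclei of food-trained mice (x axis, positive is higher in dopaminergic), with its SE, from edgeR fits of 4 against 4 libraries. Circles use TMM scaling and squares scale libraries to 13 pan-neuronal genes: Vip (3.47 and 2.63) and Cck (2.54 and 1.64) are positive in both, while Sst and Adcyap1 change sign.

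Levels of different genes were set side by side as CPM per kilobase of the longest GENCODE transcript. In FT DA the order was Sst (229 ± 83.0 CPM per kilobase, SD, n = 4), Cck (121.7 ± 69.6), Cartpt (28.98 ± 14.6), Adcyap1 (22.8 ± 5.10), Grp (20.9 ± 12.5), Vip (18.5 ± 6.80), Nts (14.9 ± 7.78), Gal (12.7 ± 7.99), Tac1 (6.51 ± 6.58) and Npy (3.84 ± 4.44). Libraries of neighbours in this order overlapped in 8 of the 9 steps, the exception being the step from Cck to Cartpt. In FT nDA Sst led again (148.4 ± 26.6), Cartpt was second (45.5 ± 11.6), Cck was sixth (20.6 ± 8.86) and Vip last (1.64 ± 0.97). Among the 10 members, Sst and Cck had the highest means in the dopaminergic fraction by this measure at food training, and also at maintenance (307 ± 45.8 and 139.8 ± 66.4, n = 3) and at abstinence (213 ± 53.2 and 76.3 ± 27.4, n = 4). Penk, the enkephalin precursor and not a member, had a higher mean than both at each stage (368.9 ± 174.9, 473.4 ± 246.8 and 366.0 ± 174.6).

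The enzymes and vesicle proteins that turn precursors into released peptides were listed as a group. Of 28 listed genes of peptide processing and dense-core vesicles, all tested, 7 were called higher and 1 lower in FT DA, where 3.63% of all genes were called higher and 9.17% lower. The median log2 fold change was 0.49, beside -0.21 over all genes. The 4 higher genes with the lowest p were Slc18a2, the vesicular monoamine transporter and itself a dopamine marker (fitted log2 fold change 4.04, SE 0.33, adjusted p 0.000733 in edgeR), Syt4, a synaptotagmin of dense-core vesicles (1.89, SE 0.28, 0.00670), Scg2, which encodes secretogranin II (1.50, SE 0.23, 0.00670), and Pam, the enzyme that amidates peptides (1.61, SE 0.26, 0.00670). Syt4 stood at 3128 ± 622 against 831 ± 236 CPM and Pam at 850 ± 56.1 against 273 ± 92.3 CPM (SD, n = 4 each). Scg2 and Pam lost the call when scaled to the pan-neuronal genes, with edgeR adjusted p of 0.0585 and 0.0697. Sytl4, a synaptotagmin-like protein of secretory granules, had 0 counts in the 4 FT DA libraries and 31 to 73 counts in the nDA libraries. It passed the filter through the nDA libraries alone. Against a floor of 3 counts per library the difference is 13.0-fold, but the floor does not cover genes missed in FT DA libraries. Their part in this value was not tested. Sytl4 did not pass with the replicate block (edgeR adjusted p 0.183).

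Other neuropeptide precursors were listed too, 43 in all, of which 30 were tested and 2 were called higher and 3 lower in FT DA. That is near the share over all genes (12.8% called), and the median log2 fold change was 0.16, beside -0.21 over all genes. Nucb2, which encodes the nesfatin precursor, stood at 81.7 ± 38.4 against 28.9 ± 3.30 CPM (fitted log2 fold change 1.48, SE 0.36; adjusted p 0.0250 by edgeR). Npw, the neuropeptide W precursor, stood at 11.8 ± 6.42 against 0.355 ± 0.241 CPM (5.01, SE 1.27; adjusted p 0.0303 by edgeR). Hcrt, the orexin precursor of lateral hypothalamic neurons, had 0 counts in all FT DA libraries and between 18 and 1275 counts in the nDA libraries (25.8, 0.373, 23.3 and 0.581 CPM). It passed the filter through the nDA libraries alone. Against the floor of 3 counts per library the difference is 159.4-fold, but the floor does not cover genes missed in FT DA libraries. Their part in this value was not tested. The mean of Hcrt was 8.68 CPM in MN DA and 12.4 CPM in CRV DA. Replicates 1 and 3 carry the nDA mean: the difference from the floor is 103.0-fold without replicate 1, and replicates 2 and 4 alone give 4.74-fold and 7.39-fold. Npb and Nms, the other precursors called lower, averaged under 20 counts. The calls of Nucb2, Npw and Hcrt were lost in some fits with 1 library fewer. Nucb2 did not pass without FT DA replicate 2 (edgeR adjusted p 0.0520) or FT nDA replicate 1 (0.0730), 2 (0.0619), 3 (0.0706) or 4 (0.0530), while its log2 fold change stayed between 1.34 and 1.55 in these fits; scaled to the pan-neuronal genes it was 0.62 (edgeR adjusted p 0.241). Npw did not pass without FT nDA replicate 1 (edgeR adjusted p 0.0871), 2 (0.0802) or 3 (0.0814), with log2 fold changes of 5.23, 5.09 and 5.29. Hcrt did not pass without FT nDA replicate 1 (edgeR adjusted p 0.0742) or 3 (0.0772), nor in limma-voom (0.0910). With the replicate block none of these 3 passed (edgeR adjusted p 0.0724 for Nucb2, 0.122 for Npw and 0.0824 for Hcrt), and with all 15 libraries in the fit Npw (0.0554) and Hcrt (0.0660) did not.

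Receptors of the 10 peptides were compared in the same fit, since a peptide acts where its receptor is made. Of 26 listed receptor genes, 23 were tested, and 2 were called higher and 3 lower in FT DA, where 3.63% of all genes were called higher and 9.17% lower. The median log2 fold change was -0.32, beside -0.21 over all genes. Ntsr1, the main neurotensin receptor of neurons, stood at 259 ± 157.8 CPM in FT DA and 18.5 ± 8.96 CPM in FT nDA (fitted log2 fold change 3.79, SE 0.54; adjusted p 0.00670 by edgeR), and Tacr3, the receptor with highest affinity for neurokinin B, at 182 ± 64.2 against 14.9 ± 5.51 CPM (3.59, SE 0.37, 0.00195). Both were called in each of 19 alternative fits. Ntsr2, a neurotensin receptor known from astrocytes, went the other way, at 54.5 ± 7.67 against 270.4 ± 90.1 CPM (-2.33, SE 0.26, 0.00258), and the 6 astrocyte markers summed to between 741 and 939 CPM in FT DA and to between 1431 and 3016 CPM in FT nDA; the part of astrocyte RNA in this difference was not tested.

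The remaining receptor calls concerned genes near the limit of detection. Vipr1, a receptor shared by VIP and PACAP, had 0 counts in the FT DA libraries and 44 to 341 in FT nDA. Against the floor of 3 counts per library the difference is 39.4-fold, and 21.4-fold without FT nDA replicate 4, the library with 341 counts. Galr2, a galanin receptor, had 0 and 25 to 66 counts (13.4-fold against the floor). Both passed the filter through the nDA libraries alone. The floor does not cover genes missed in FT DA libraries, and their part in these values was not tested. Vipr1 and Galr2 did not pass with the replicate block (edgeR adjusted p 0.151 and 0.183) or with all 15 libraries in the fit (0.0567 and 0.0592). The receptors of cholecystokinin did not pass. Cckar stood at 12.5 ± 7.94 against 2.67 ± 1.14 CPM (fitted log2 fold change 2.21, SE 0.73; adjusted p 0.0877 by edgeR) and Cckbr at 36.2 ± 19.5 against 28.1 ± 6.71 CPM (0.34, SE 0.44, 0.727). Adcyap1r1, the PACAP receptor, stood at 282 ± 104.6 against 206 ± 53.3 CPM (0.43, SE 0.31, 0.460). Tacr1, another listed receptor, had means of 20.4 against 14.7 CPM (0.46, SE 0.45; adjusted p 0.619 by edgeR). Neurokinin B, named above for Tacr3, is not among the Tac1 products named for that member.

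**Figure D3:**
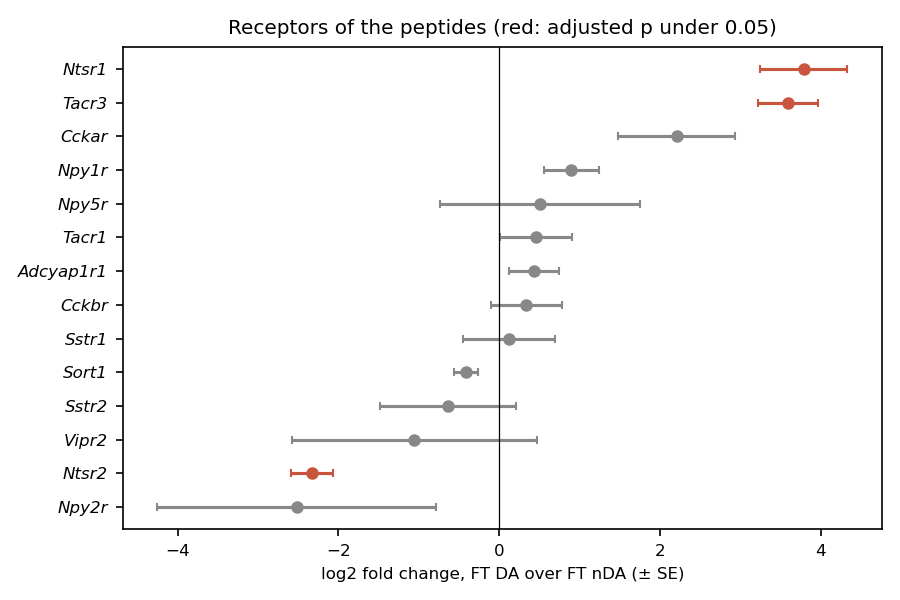
log2 fold change (± SE) between dopaminergic and non-dopaminergic nuclei of food-trained mice for the 14 receptor genes of the peptides with a mean of at least 10 CPM in either fraction. Red points passed edgeR's adjusted p under 0.05: Ntsr1 and Tacr3 were higher in dopaminergic nuclei and Ntsr2 was lower.

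The cocaine schedule was examined in the dopaminergic libraries, in 1 fit of all 11, to ask whether the precursors changed between food training, maintenance and abstinence. The test called none of the precursors: 0 of 10 members passed in edgeR for maintenance against food training, for abstinence against food training, for abstinence against maintenance or for any difference among the 3 stages. Over all 19060 genes tested, edgeR called 0.131%, 0%, 0.178% and 0.0839%. At an unadjusted p under 0.05 there were 1, 0, 0 and 1 members, where all genes gave 11.6%, 4.3%, 9.92% and 7.85%. Groups did not overlap in 0, 0 and 1 members in the 3 pairs, against 8.5%, 3.32% and 12.1% of all genes. DESeq2 and limma-voom also called 0 members in each comparison. In simulated counts, edgeR recovered 46.5% of genes given a log2 change of 3 for maintenance against food training. Large changes can therefore be missed, and an uncalled member is not shown to be unchanged. The 2 comparisons with food training share its libraries, and so do the 2 with maintenance.

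Adcyap1 had the lowest p. It stood at 69.3, 56.8, 90.7 and 92.6 CPM after food training, at 162.7, 153.4 and 84.8 CPM at maintenance and at 106.2, 91.9, 95.5 and 76.7 CPM after abstinence. MN DA replicates 1 and 2 were above every other DA library, and MN DA replicate 3 lay within the food-trained range. The log2 fold change at maintenance was 0.79 (SE 0.28, unadjusted p 0.0137, edgeR adjusted p 0.361), and that at abstinence against food training was 0.26 (SE 0.26; adjusted p 0.999974 by edgeR).

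Nts, Cartpt and Gal had lower means at maintenance than after food training. Nts stood at 30.7, 20.7, 7.45 and 15.7 CPM after food training, at 0, 2.47 and 11.9 CPM at maintenance and at 9.16, 18.4, 12.8 and 12.3 CPM after abstinence. Its log2 fold change at maintenance was -1.95 with a SE of 1.27 (edgeR adjusted p 0.635), and its maintenance libraries ran from 0 to 488 counts. Cartpt stood at 22.7, 9.65 and 19.6 CPM at maintenance and overlapped the food-trained libraries (fitted log2 fold change -1.05, SE 0.50; adjusted p 0.445 by edgeR). Cartpt is the member named for a response to cocaine, and in these nuclei its mean was 35.9 ± 18.1 CPM (n = 4) after food training, 17.3 ± 6.81 CPM (n = 3) at maintenance and 29.7 ± 10.8 CPM (n = 4) after abstinence.

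Cck, Vip and Grp had their highest means at maintenance, and so did Adcyap1, Tac1, Sst and Npy. The median log2 fold change of the members at maintenance against food training was 0.51, beside -0.0072 over all genes. The 13 pan-neuronal genes summed to between 5874 and 6858 CPM in MN DA. The sums were 4591 to 6098 CPM in FT DA and 4069 to 5799 CPM in CRV DA, and their part in the member means was not tested. The fitted difference of Cck from food training (log2 fold change 0.20, SE 0.46) turned negative without FT DA replicate 2 or MN DA replicate 2. Cck stood at 59.9, 165.9 and 109.4 CPM at maintenance and at 82.7, 30.8, 62.2 and 68.3 CPM after abstinence, and the log2 fold change between these stages was -0.87 (SE 0.46; adjusted p 0.569 by edgeR). Grp stood at 16.5, 99.9 and 74.2 CPM at maintenance, where its log2 fold change against food training was 1.20 (SE 0.68; adjusted p 0.532 by edgeR), and at 37.5, 10.5, 44.7 and 14.2 CPM after abstinence. In Grp and Vip, MN DA replicates 2 and 3 were the highest of all DA libraries while MN DA replicate 1 was low (16.5 CPM for Grp and 16.9 CPM for Vip). The log2 fold change of Vip against food training was 0.59 (SE 0.56; adjusted p 0.832 by edgeR), and these means rest on 2 of 3 libraries. In MN DA replicates 1 to 3 the 12 dopamine markers summed to 8297, 8298 and 9885 CPM, the GABA markers to 815, 356 and 493 CPM and the glutamate markers to 689, 283 and 558 CPM. The last 2 sums were highest in replicate 1, and their part in the Vip and Grp values was not tested.

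Sst stood at 207.5, 197.5 and 259.1 CPM at maintenance and at 101.0, 192.5, 163.4 and 158.8 CPM after abstinence. These 2 stages did not overlap, and the log2 fold change of -0.53 (SE 0.30) had an edgeR adjusted p of 0.623. Tac1 stood at 24.8, 10.6 and 62.7 CPM at maintenance and at 26.9, 19.2, 32.3 and 29.2 CPM after abstinence, and its log2 fold changes against food training were 1.35 (SE 1.15) and 1.06 (SE 1.08), with the food-trained library at 0 described above. Gal stood at 2.97, 4.68 and 10.4 CPM at maintenance and at 0, 3.41, 7.99 and 2.55 CPM after abstinence, with log2 fold changes against food training of -0.73 (SE 1.37) and -1.52 (SE 1.28). Npy stood at 0, 1.99 and 9.17 CPM at maintenance and at 1.96, 0.95, 2.52 and 0 CPM after abstinence, and was at 0 in 4 of the 11 DA libraries. No stage difference of Npy or Gal passed the test.

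**Figure D4:**
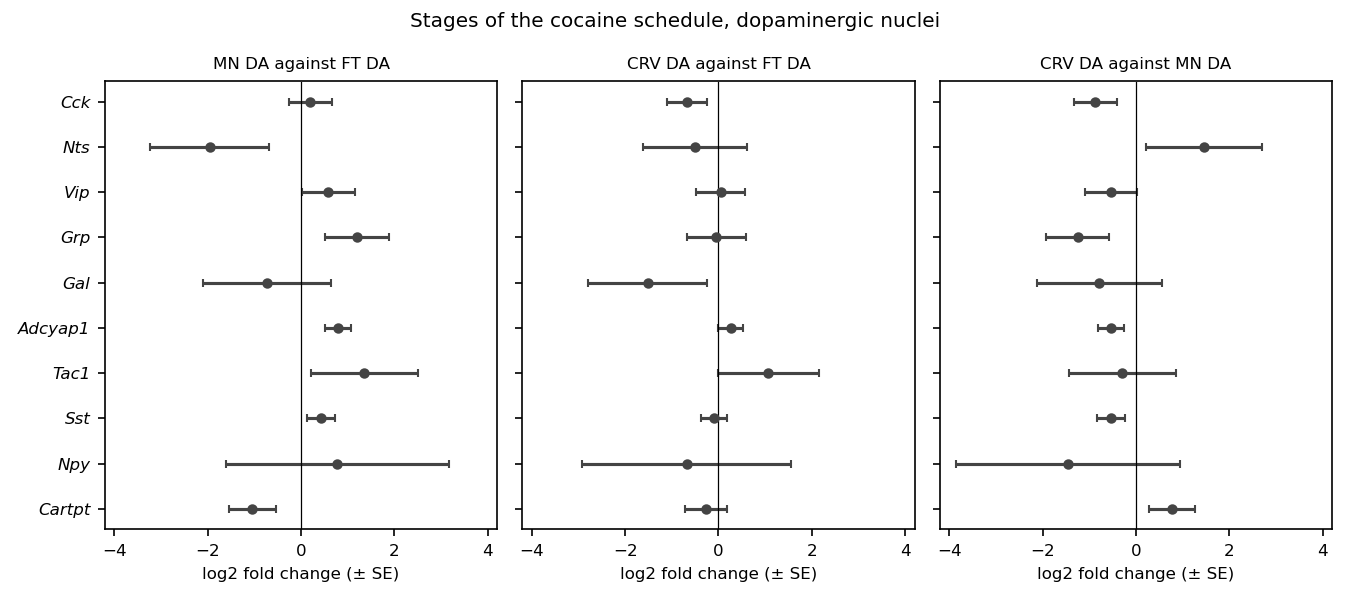
log2 fold change (x axis, ± SE) of each precursor between the stages of the cocaine schedule in dopaminergic nuclei, from 1 edgeR fit of 11 libraries (FT n = 4, MN n = 3, CRV n = 4). None of the 10 precursors passed an adjusted p under 0.05; the SE is largest for Npy, Gal, Nts and Tac1, which have libraries at 0, and smallest for Adcyap1 and Sst.

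No call fell in the other peptide lists either: among other precursors (31 tested), processing genes (27) and receptors (20), 0 genes were called by edgeR in any of the 3 pairs of stages. At an unadjusted p under 0.05, maintenance against food training gave 5, 6 and 1 genes (11.6% of all genes), abstinence against food training 4, 0 and 1 (4.3%), and abstinence against maintenance 1, 4 and 2 (9.92%). The 3 most abundant genes of each list are given as values. Penk stood at 535 ± 253 CPM after food training, 686 ± 358 CPM at maintenance and 530 ± 253 CPM after abstinence. Nucb2 stood at 81.7 ± 38.4, 74.2 ± 8.41 and 56.9 ± 3.24 CPM, and Pnoc, the nociceptin precursor, at 52.8 ± 25.9, 60.0 ± 30.3 and 45.5 ± 20.9 CPM. Scg2 stood at 2894 ± 367, 3765 ± 244 and 2713 ± 518 CPM, Syt4 at 3128 ± 622, 4000 ± 1194 and 2945 ± 684 CPM, and Cpe, the carboxypeptidase that trims precursors, at 2706 ± 838, 3566 ± 1451 and 2817 ± 1016 CPM. Among the receptors, Adcyap1r1 stood at 282 ± 104.6, 193 ± 27.5 and 282 ± 115.2 CPM, Ntsr1 at 259 ± 157.8, 134 ± 15.3 and 240 ± 114.5 CPM and Tacr3 at 182 ± 64.2, 239 ± 38.0 and 197 ± 75.1 CPM.

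The spread between replicates was compared with that of all genes. The median SD of log2 CPM over the 10 members was 0.83 in FT DA, 1.09 in MN DA, 0.60 in CRV DA and 0.64 in FT nDA, beside 0.86, 0.68, 0.62 and 0.40 over 21812 genes. It was above that of all genes in MN DA and in FT nDA. Among the 45 pairs of members, Pearson's r of log2 CPM over the 11 DA libraries, which share sort, kit and stage groups, ran from -0.79 (Nts with Adcyap1) to 0.80 (Cck with Grp), and it is given as a description. The Spearman rho of the Cck and Grp pair was 0.76.

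**Figure D5:**
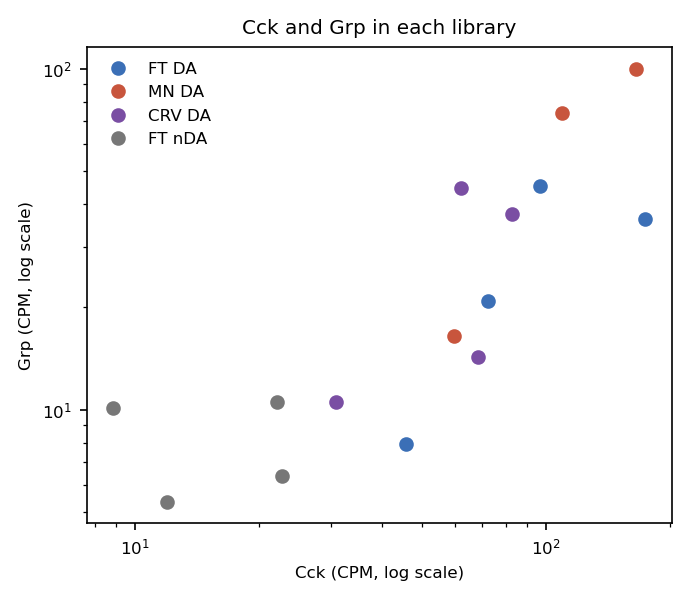
Grp against Cck in each library, both in CPM on log axes, coloured by group (FT DA, MN DA, CRV DA, FT nDA). Across the 11 dopaminergic libraries high values go together (Pearson's r 0.80 of log2 CPM), and the 4 non-dopaminergic libraries have the lowest Cck values, with Grp values (5.37 to 10.5 CPM) that overlap the lowest dopaminergic ones.

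For each member, the 2 most similar genes were sought among 14475 others by Pearson's r of log2 CPM over the same 11 libraries, as a description of shared pattern only; the 20 values of r ran from 0.86 to 0.99. Cck was most like Psip1 (0.93) and DQ267101 (0.92), Vip like Irx2 (0.89) and Ppp1r9a (0.86), and Grp like Zfp612 (0.94) and H1fx (0.89). Sst was most like Rab1a and Txndc12 (0.92 each), Adcyap1 like Kcnab1 (0.88) and Cdk3-ps (0.86), and Cartpt like Ten1 and Sost (0.90 each). The other 4 members each have DA libraries at 0: Nts was most like Zfp251 and Lzic (0.97 each), Gal like Wipf1 and Itgbl1 (0.93 each), Tac1 like Lsm8 (0.99) and Tti1 (0.98), and Npy like Asf1b (0.98) and Slc25a24 (0.95).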

How the data were processed

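The authors deposited whole-number counts per gene symbol for 15 libraries. The submitters' processing notes name Trim Galore 0.6.7, cutadapt 1.18, STAR 2.7.10a, StringTie 2.1.5, DESeq2 1.38.3 and the build GRCm38 (mm10), with no role or order; the annotation and any use of strand are not given in the sources used here. A second deposited table holds 10 of the 11 DA libraries, all but FT DA replicate 3, repeats these counts (0 cells differ) and was not used. Libraries are low-input and carry no molecular identifiers.

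The software was edgeR 4.0.16 for the tests, DESeq2 1.42.0 and limma 3.58.1 for alternatives (R 4.3.3) and Python 3.11.15 for sequences. Genes passed filterByExpr, libraries were scaled by TMM, and each contrast took the quasi-likelihood F-test of edgeR (two-sided), with Benjamini-Hochberg adjustment over all genes tested and a threshold of 0.05. The FT fractions were fitted on 8 libraries and the stages on all 11 DA libraries. CPM values use TMM factors of all 15 libraries; log2 CPM uses a prior count of 2. Named genes are all members and, from each other list, up to 4 called genes per direction with the lowest p and a mean of at least 20 counts, or the 3 most abundant where fewer than 2 were called. Cckar, Cckbr, Adcyap1r1 (between the populations), Tacr1, Npb, Nms, Pmch, Syt1, Elavl4, Tubb3, Uchl1, Rbfox3 and Elavl3 fall outside this rule and were named after their values were seen. The members and lists were chosen with earlier results of these data known. Positions and lengths are from GENCODE M21. Scripts were tested on counts simulated from the means, library sizes and fitted dispersions of these data. In each comparison tried, 200 genes were given a log2 change of 3. The edgeR test recovered 44% of them between the populations and 46.5% for maintenance against food training. Of the calls, 1.12% and 6.06% were false.

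Alternatives were other scalings, filters and tests, robust dispersions, other libraries in the fit, a GC offset, a replicate block and leaving out each library.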

Additional observations from a re-analysis of the deposited data

Results flagged for a closer look

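Gal in FT nDA replicate 1 stood at 44.2 CPM, and the other 3 FT nDA libraries lay between 4.84 and 9.63 CPM. The gap between this library and the next is 0.878 of the range of the group. It is the one value singled out among 30 sets of 4 libraries (10 genes in 3 groups), and chance alone singles out about 1 set in 20.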

How the results depend on the processing

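The 2 calls between the populations, Vip and Cck, held in each of 19 alternative fits, with log2 fold changes from 2.63 to 3.83 and from 1.64 to 2.77 (edgeR, DESeq2 or limma adjusted p up to 0.0249 and 0.0269). The count of members called was 3 in 5 of these fits, with Grp added under the filter of at least 10 counts in every library, DESeq2, limma-voom and without FT DA replicate 2, and Cartpt added under pan-neuronal scaling; in the others it was 2. Between stages the count stayed at 0 in each alternative among the members it tested. The filter of at least 10 counts tested 8 members between the populations (not Tac1 and Npy) and 6 between stages (not Nts, Gal, Tac1 and Npy). Values of uncalled members changed sign 5 times between the populations (3 members, in 3 fits), 3 times for maintenance against food training (2 members, 3 fits), 13 times for abstinence against food training (4 members, 9 fits) and 3 times for abstinence against maintenance (2 members, 2 fits). Same-numbered FT DA and FT nDA libraries deviated together by correlations of 0.0211 to 0.0689, and DA libraries between stages by -0.0663 to 0.0305; 6 of 8 FT libraries correlated best with their own number. These values do not settle whether the numbers mark pairs. The main fit left the libraries unpaired, and the fit with the replicate block is given beside it. With the replicate block, 775 genes passed between the populations in place of 2534, Vip and Cck among them, and Nucb2 (adjusted p 0.0724), Npw (0.122), Hcrt (0.0824), Sytl4 (0.183), Galr2 (0.183) and Vipr1 (0.151) did not pass. With all 15 libraries in the fit, Npw (0.0554), Hcrt (0.0660), Galr2 (0.0592) and Vipr1 (0.0567) did not pass, pan-neuronal scaling removed Nucb2 (0.241), Scg2 (0.0585) and Pam (0.0697), and limma-voom removed Hcrt (0.0910). The number of all genes called ran, over the alternatives, from 775 to 5111 between the populations (2534 as reported), from 0 to 1157 for maintenance against food training (25), from 0 to 176 for abstinence against food training (0), from 2 to 921 for abstinence against maintenance (34) and from 0 to 472 for any stage (16). The highest count was DESeq2's except between the populations, where pan-neuronal scaling gave it, and the lowest was that of the replicate block except for abstinence against food training.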

Other observations

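Precursors of lateral hypothalamic peptides were uneven between libraries of 1 group. Pmch, the precursor of melanin-concentrating hormone, stood at 103.4, 0.414, 41.0 and 5.94 CPM in FT nDA replicates 1 to 4, at 8.21 CPM in FT DA replicate 1, at 3.14 CPM in MN DA replicate 2 and at 0 in the other 9 DA libraries. Hcrt, the orexin precursor, was high in the same pair of nDA libraries (25.8 CPM in replicate 1 and 23.3 CPM in replicate 3) and low in the others (0.373 and 0.581 CPM). Among DA libraries Hcrt stood at 49.6 CPM in CRV DA replicate 1 and 21.5 CPM in MN DA replicate 3, and at most 2.77 CPM in the other 9. FT nDA replicate 1 is also the library with Gal at 44.2 CPM. These genes were picked after their values were seen, and no test was made.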
